A study of Jaculus jaculus and Mus musculus with 24 samples.

Results

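Foot muscle of the jerboa Jaculus jaculus was compared with its forelimb (FDS) muscle at postnatal day 3 (P3), in 3 RNA sequencing libraries of each. A feature entered the comparison if it had at least 10 reads in 3 of these 6 libraries, which 13128 of the 17641 features in the deposited files did. The series holds 24 libraries, 3 for each combination of species (jerboa or mouse), age (newborn, P0, or P3) and limb, and its stated subject is the transcriptome of muscle loss. Every group was labelled normal, with no genotype, strain or agent given. Foot muscle was isolated from sections and the FDS muscles, labelled forelimb muscle, were dissected, so the method of isolation cannot be told apart from the limb. Whether a group's 3 libraries are from different animals is not labelled, and p-values here measure only the spread between libraries. Features carried mouse transcript identifiers in both species, and 13064 of the 13128 were paired with a mouse gene symbol.

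Adult jerboas have no intrinsic muscles in the hindfoot, although such muscles form before birth and are then lost in the young animal. Skeletal muscle fibres contract through myosin and actin filaments arranged in sarcomeres. Several sarcomere proteins have developmental, slow or fast forms that replace one another as fibres mature. Muscle that is unused, denervated or starved is broken down by the proteasome and by autophagy, and ligases such as Trim63 (MuRF1), which mark contractile proteins for the proteasome, are widely read as a sign of it.

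The 6 libraries held 20748043 to 34021939 counted reads, and the levels below are CPM, counts scaled to a common library size by the trimmed mean of M values. A level in CPM is not corrected for transcript length, so levels are compared between limbs for 1 gene and never between genes. Differences are log2 fold changes of foot over forelimb with their standard error, tested with edgeR's quasi-likelihood test at an adjusted p of 0.05. By that test 9607 features (73.2%) differed, 5010 (38.2%) higher and 4597 (35.0%) lower in foot, and the median over all features was 0.04. The libraries of the 2 limbs did not overlap for 75.8% of features. Among the called features the estimate was over 2-fold for 1123 higher and 1688 lower features, which is 8.55% and 12.9% of all tested, and a test against a minimum of 2-fold called 625 and 1090. With nearly 3 in 4 features called, a list of genes is read against these shares, and the size of a difference carries more than its call. Members near the filter had few reads: the 67 features for which the third highest count was 10 had between 33 and 101 reads over the 6 libraries, and the 100 at 9, just outside, had between 30 and 128.

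The fold change also moved with transcript length. Among the features with a mouse transcript length, the median log2 fold change was 0.38 in the shortest quintile (39 to 1758 bases) and -0.48 in the longest quintile (5080 to 123179 bases). In the shortest quintile 56.1% of features were higher in foot, and in the longest 61.8% were lower. The medians of the same quintiles were 0.26 and -0.47 at P0 and 0.10 and -0.14 in mouse at P3. The fit was therefore repeated with an offset that takes each library's trend over transcript length out of the model, and that value is given below wherever it ends a call, changes its direction or moves it by more than 1.5-fold. The lengths are those of the mouse transcripts, and the part that RNA quality had in the trend was not tested.

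**Figure D1:**
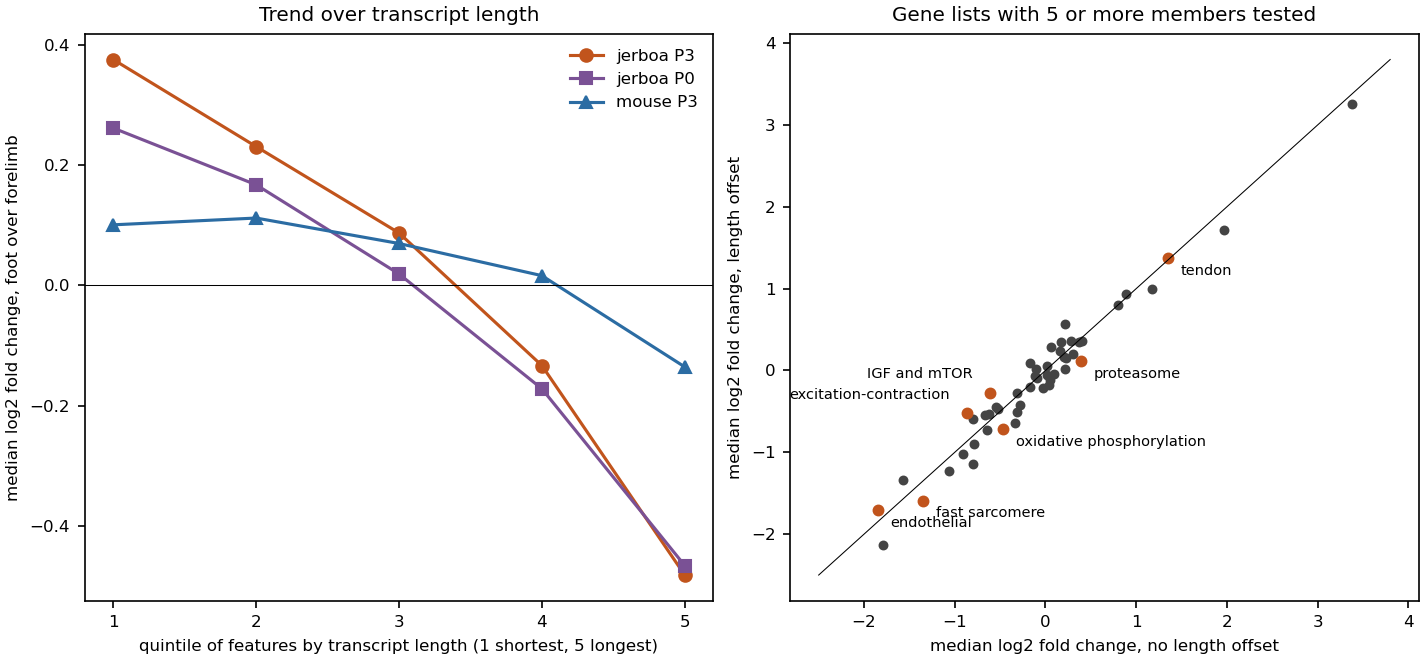
Left: median log2 fold change of foot over forelimb (y) in quintiles of the features by mouse transcript length (x, 1 shortest, 5 longest) for jerboa at P3 and P0 and mouse at P3; the P3 jerboa median runs from 0.38 to -0.48. Right: the median of each gene list without (x) and with (y) the length offset; the line marks equal values, and the proteasome list moves from 0.39 to 0.11.

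The limb label was checked first. Tbx4, a transcription factor of the hindlimb, read 101, 106 and 92.02 CPM in the foot libraries and 2.02, 2.303 and 3.13 CPM in the forelimb libraries. Pitx1, which acts upstream of it in the hindlimb, had 625 reads in foot and 2 in forelimb, a ratio of 345 with a 95% counting interval of 95.2 to 2859. Tbx5, the forelimb counterpart, had 2 reads in foot and 743 in forelimb, a ratio of 336 (92.7 to 2780). In these 3 genes all 6 libraries carried the expression of their labelled limb. Of 17 tested genes of limb identity and the Hox clusters, 13 were higher and 3 lower in foot. The posterior gene Hoxc10 had 2018 reads in foot and 1 in forelimb, and Hoxc9 had 150 and 0, which is at least 55.3-fold higher when the floor is set at 3 forelimb reads in all.

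The samples were also checked against markers of muscle and of other cells. Of 13 tested myofibre markers, 11 were lower and 1 higher in foot, and their summed level was 36489.7 to 39275 CPM in foot and 73212 to 82287 CPM in forelimb. Tendon markers went the other way, with 13 of 14 higher and none lower, and their sum was 10955 to 12003 CPM against 4415 to 5258 CPM. Cartilage markers summed to 1609 to 2081 CPM in foot and 760 to 917 CPM in forelimb, with 8 of 16 higher and 2 lower. All 17 endothelial markers were lower, at 319.9 to 368 CPM against 1227 to 1391 CPM. The foot libraries were thus skeletal muscle with more tendon and cartilage transcripts and fewer vessel transcripts than the forelimb libraries, and the part of this makeup in each result below was not tested. In bulk tissue, fewer cells of a type and less RNA per cell cannot be told apart.

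Among features of at least 10 CPM in 1 limb, the largest increases in foot after the Hox genes were Corin and Ass1. Ass1, the argininosuccinate synthase that joins citrulline and aspartate on the way to arginine, lies at chromosome 2, 31470207 to 31520672 of the mouse GRCm38 build. Its level was 2501, 2909 and 3125 CPM in foot and 57.5, 67.5 and 50.6 CPM in forelimb. Every foot library was far above every forelimb library, a 48.6-fold difference (log2 5.60 ± 0.14, adjusted p = 2.1e-19). Corin, a membrane protease that activates natriuretic peptide precursors, read 66.01, 59.3 and 53.3 CPM in foot and 0.905, 0.601 and 0.597 CPM in forelimb (log2 6.39 ± 0.20). Both groups were tight and separate. The mast cell proteases Cma1 and Cpa3 followed at log2 5.38 and 5.16, with foot replicate 3 the highest for each (55.5 and 68.4 CPM against 28.1 to 40.6 CPM in the other two foot libraries). Acan, the large proteoglycan of cartilage, rose by 4.21, and Tbx4, Dbndd1, Adap1, Bicdl1 and Cdh8 completed the 12 with log2 values from 3.74 to 5.33.

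Among the 12 largest decreases, Mybpc2, the fast form of myosin-binding protein C, read 0.318, 0.258 and 0.196 CPM in foot and 15.1, 21.3 and 18.4 CPM in forelimb (67.7-fold lower, log2 -6.08 ± 0.31, adjusted p = 2.1e-14). Myl2, the slow regulatory myosin light chain, read 13.3, 11.8 and 6.77 and 345, 345 and 379.7 CPM (log2 -5.04 ± 0.34). Aqp4, the water channel of fast fibres, read 0.255, 0.0967 and 0.245 and 9.68, 10.5 and 12.2 CPM. Mybpc2 and Aqp4 were under 1 CPM in every foot library, and the limbs did not overlap for any of the 3 genes. Fbp2, the muscle fructose bisphosphatase, fell 20.2-fold and Tecrl, an enoyl reductase-like membrane protein, 23.3-fold. Mettl11b, Dupd1, Clic5, Nnmt, Plin4, Gucy1a2 and Ctxn3 made up the rest, at log2 -6.29 to -4.02.

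**Figure D2:**
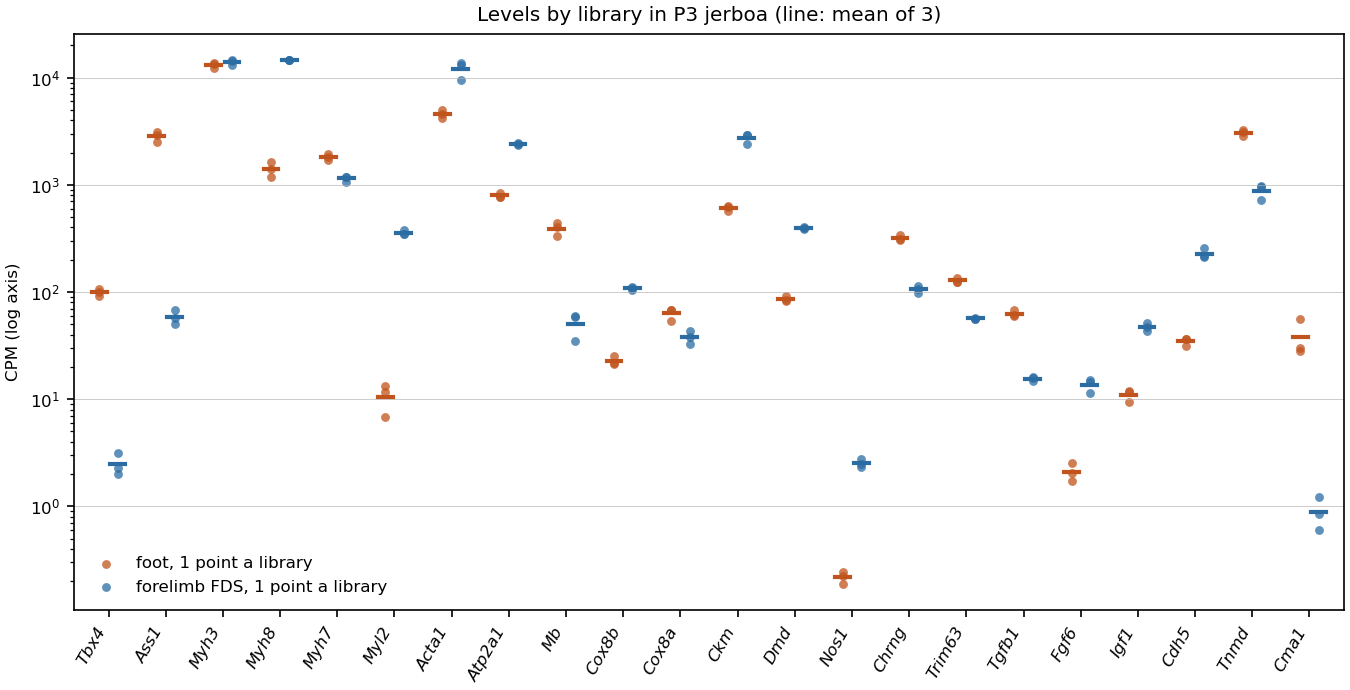
CPM on a log axis (y) of 22 genes (x) in the 3 foot (orange) and 3 forelimb FDS (blue) libraries, with the mean as a line. For Myh3 the libraries overlap, and for every other gene drawn the groups are apart; Ass1 lies at 2501 to 3125 CPM in foot.

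The developmental myosins did not move together. Myh3, the embryonic myosin heavy chain, read 12289, 13797 and 13327 CPM in foot and 14595, 13109 and 14326 CPM in forelimb, so the groups overlapped and no difference was called (log2 -0.09 ± 0.11, adjusted p = 0.45). With the length offset the value was 0.34 (adjusted p = 0.0088), so the call for Myh3 depended on that choice. Myh8, the neonatal (perinatal) heavy chain that succeeds it, read 1635, 1392 and 1189 CPM in foot and 14573, 14629 and 14530 CPM in forelimb. Foot was 10.4-fold lower (log2 -3.37 ± 0.14, adjusted p = 7.1e-16) with no overlap. In mouse the 2 genes sit in 1 cluster on chromosome 11 (GRCm38), Myh3 at 67078300 to 67102291 and Myh8 at 67277124 to 67308634. Myosin heavy chains share long stretches of sequence, and how the authors counted reads that match several of them is not given in the sources used here. Of the other developmental forms, the cardiac actin Actc1 fell from 4581 to 2543 CPM and the embryonic light chain Myl4 from 558 to 319.6 CPM. Tnnt2, the troponin T of early fibres, rose (log2 0.55 ± 0.073).

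Of 15 tested fast fibre genes, 13 fell and 2, Myh4 and Pvalb, were not called, with a median log2 of -1.35 against 0.04 for all features. Actn3, the fast alpha-actinin, fell 5.13-fold and Mylk2, the light chain kinase of fast muscle, fell from 82.4 to 15.8 CPM. Among heavy chains, Myh2 (type IIa) read 93.7, 84.99 and 72.8 CPM in foot and 549, 407 and 369 CPM in forelimb (log2 -2.40 ± 0.26), and Myh1 (type IIx) fell less (log2 -0.90 ± 0.19). Myh4 (type IIb) read 61.2, 43.1 and 69.9 and 50.6, 47.2 and 51.6 CPM, with overlapping groups and no call (log2 0.22 ± 0.18; 0.66, adjusted p = 0.003, with the length offset). Pvalb, the calcium buffer parvalbumin, was not called at 0.45 ± 0.30, but was without foot replicate 1 (0.73, adjusted p = 0.032) or forelimb replicate 3 (0.88, adjusted p = 0.015). The abundant fast light chain Mylpf and troponin Tnnt3 fell by smaller amounts, log2 -0.70 and -0.90.

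Slow fibre genes were split, with 6 of 13 higher and 6 lower. The slow troponins Tnnt1 and Tnni1 rose, Tnnt1 from 616, 508 and 577 CPM in the forelimb libraries to 1622, 1592 and 1739.6 CPM in the foot libraries (log2 1.54 ± 0.10). Myh7, the slow heavy chain, read 1799.5, 1704 and 1933 CPM in foot and 1060.3, 1186 and 1192 CPM in forelimb, higher in every foot library (log2 0.66 ± 0.11, adjusted p = 7.2e-06), and Myh7b and Csrp3 rose as well. Against them stood Myl2, above, and Ankrd2, a stretch-responsive titin-binding protein that fell from 3.59 to 0.0858 CPM (log2 -5.17, or -7.29 without foot replicate 2). Mybpc1, the slow myosin-binding protein C, fell (log2 -1.06 ± 0.11).

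Of 36 tested scaffold genes of the Z-disc, M-band and filaments, 25 fell and 7 rose (median log2 -0.63). Acta1, the skeletal actin, read 4564, 5006 and 4162 CPM in foot and 13656, 9481 and 13234 CPM in forelimb, with forelimb replicate 2 the lowest of its group and still above every foot library (log2 -1.41 ± 0.12). Ttn, the giant spring protein, was lower (log2 -1.07 ± 0.10), a value that shrank to -0.34 with the length offset. The chaperone Cryab, which binds desmin and stabilizes the Z-disc, rose from 734, 698 and 813 to 1421, 1512 and 1932 CPM (log2 1.12 ± 0.12). Obsl1, Pdlim3 and Trim54 were the next largest increases at log2 0.59 to 0.75, and the call for Trim54 was lost with offsets for length and GC content together. Des, the intermediate filament desmin, fell (log2 -0.55 ± 0.089).

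Genes that couple excitation to contraction fell in 23 of 30 cases and rose in 4 (median log2 -0.87). Atp2a1, the fast calcium pump of the sarcoplasmic reticulum, read 847, 777 and 766 CPM in foot and 2387, 2365 and 2475 CPM in forelimb, 3.02-fold lower with no overlap (adjusted p = 3.8e-13). Sln, the small inhibitor of that pump, fell 4.72-fold, and Clcn1, the chloride channel, 5.65-fold at a low level. The release channels differed with length in view: Ryr3 fell by log2 -2.41 (-1.69 with the offset), while Ryr1 went from -0.78 to -0.07, no longer called (adjusted p = 0.39). Cacna1s, the voltage sensor that opens Ryr1, and its partner Stac3 were slightly higher (log2 0.27 ± 0.075 and 0.45 ± 0.074), the latter uncalled with both offsets. Mrln, the micropeptide myoregulin that inhibits the calcium pump, was called at log2 0.64 ± 0.22, but not with the length offset (0.27, adjusted p = 0.21) or without foot replicate 2 (0.52), foot replicate 3 (0.49) or forelimb replicate 3 (0.55).

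The complex that ties the cytoskeleton to the matrix had 18 of 26 members lower and 4 higher, and 5 more were under the filter. Dmd, dystrophin, read 85.03, 92.1 and 83.3 CPM in foot and 399, 389.9 and 406 CPM in forelimb, 4.59-fold lower in libraries that differed by little within each limb (log2 -2.20 ± 0.066, adjusted p = 2.6e-18; -1.49 with the length offset). Dtna and Sntb2, its dystrobrevin and syntrophin partners, fell by log2 -1.48 and -2.06 (-1.40 for Sntb2 with the offset). Dtnb, the second dystrobrevin, and Sgce, a sarcoglycan outside the core muscle complex, rose (log2 0.80 ± 0.085 and 0.43 ± 0.059). Itgb1, the beta subunit of laminin-binding integrins, was not called (1239.6 against 1365 CPM), though it was without forelimb replicate 1 (log2 -0.17).

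Nitric oxide in muscle is made by Nos1, which dystrophin anchors at the membrane, from the arginine that Ass1 helps supply. Nos1 was low throughout, at 0.191, 0.226 and 0.245 CPM in foot and 2.75, 2.34 and 2.49 CPM in forelimb, 11.5-fold lower in foot (log2 -3.52 ± 0.30, adjusted p = 5.9e-10; -2.85 with the length offset). Nos2, the inducible enzyme, read 1.495, 2.35 and 1.52 CPM in foot and 8.66, 9.35 and 10.6 CPM in forelimb and was lower as well (log2 -2.39 ± 0.18). Downstream, the receptor subunit Gucy1b1 and the kinase Prkg1 fell by log2 -2.02 and -1.92. Ddah2, which clears inhibitors of the synthases, and the related kinase Prkg2 rose (log2 0.78 ± 0.10 and 1.82 ± 0.23). The list as a whole was even, 12 higher and 12 lower of 26, or 9 and 13 with the length offset. Cav1, which binds nitric oxide synthase in endothelium, fell by -1.72. The endothelial markers were all lower as well, and their part in this decrease was not tested.

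Energy metabolism was lower nearly throughout. Of 47 tested genes of the citric acid cycle and fatty acid oxidation, 44 fell and 1 rose (median log2 -0.91). The fatty acid carriers Cd36 and Fabp3 fell 5.099-fold and 5.38-fold, and Ucp3, the muscle uncoupling protein, 8.33-fold. Lpl, the lipase that releases fatty acids from circulating lipoproteins, read 16.8, 18.2 and 17.4 CPM in foot and 276, 289 and 272 CPM in forelimb, 15.97-fold lower. The single increase in this group was Mb (2 were called higher with the length offset). Mb is myoglobin, the oxygen store of oxidative fibres. It read 331, 403 and 439.8 CPM in foot and 58.01, 34.7 and 59.8 CPM in forelimb, 7.69-fold higher with no overlap (log2 2.94 ± 0.15, adjusted p = 2.1e-14).

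Of 49 tested subunits of oxidative phosphorylation, 35 fell and 4 rose, and with the length offset 44 fell and 3 rose. The 2 sides split by isoform in cytochrome oxidase. Cox8b and Cox6a2, forms typical of heart and skeletal muscle, fell from 112, 109 and 103 to 25.4, 21.99 and 21.3 CPM and from 130.4, 95.5 and 115 to 45.1, 42.1 and 35.3 CPM. Cox8a and Cox6a1, their counterparts in most other tissues, rose from 42.9, 32.7 and 38.2 to 67.3, 67.8 and 54.1 CPM and from 69.9, 67.8 and 73.4 to 143, 143 and 113 CPM. Each pair thus moved in opposite directions in the same libraries (log2 -2.24 ± 0.14 and 0.74 ± 0.11, -1.47 ± 0.11 and 0.92 ± 0.085). Cox7a2, also the widely expressed form, was the other clear increase (log2 0.89 ± 0.14).

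Glycolysis and creatine phosphate genes fell in 19 of 27 cases and rose in 2. Ckm, muscle creatine kinase, read 631, 623 and 568 CPM in foot and 2911, 2425 and 2907 CPM in forelimb (log2 -2.18 ± 0.10). Phkg1, the catalytic subunit of muscle phosphorylase kinase, fell 9.98-fold and Gpd1, which links glycolysis to glycerol phosphate, 6.88-fold. The housekeeping enzyme Gapdh was not called (1671 against 1697 CPM), though with the length offset it was lower at -0.33 (adjusted p = 0.007). The 2 increases were small: Ampd1, the AMP deaminase of muscle, at 0.40, and Gpi1 at 0.18, which was not called with the length offset (0.10) or without foot replicate 2, forelimb replicate 1 or forelimb replicate 2 (0.13 to 0.16).

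At the neuromuscular junction 10 of 23 tested genes rose and 9 fell. Chrng, the gamma subunit of the fetal acetylcholine receptor, read 314, 341 and 304 CPM in foot and 106, 97.3 and 114 CPM in forelimb, 3.02-fold higher with no overlap (log2 1.60 ± 0.12, adjusted p = 2.0e-11). Chrne, the adult subunit that replaces it, read 5.03, 5.51 and 4.61 and 4.71, 4.57 and 4.81 CPM, overlapping and not called. Dok7, the adaptor that activates the kinase Musk, read 111, 99.7 and 93.7 CPM in foot and 27.1, 16.7 and 22.2 CPM in forelimb (log2 2.20 ± 0.11). Musk itself rose less (log2 0.42 ± 0.073), and Lrp4, the receptor through which agrin reaches it, fell (log2 -1.37 ± 0.073; -0.77 with the length offset). Colq, the collagen tail that anchors acetylcholinesterase, and Col13a1, a junctional transmembrane collagen, rose by log2 1.73 and 1.88. Utrn, the dystrophin relative of the junction, fell (log2 -1.34 ± 0.064; -0.65 with the offset).

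Among 29 tested genes known to respond to denervation, 13 rose and 8 fell, or 15 and 3 with the length offset. Besides Chrng and Chrna1, the increases included Ampd3, an AMP deaminase (log2 1.45 ± 0.12), and Gdf5, a BMP ligand induced in denervated muscle (log2 1.98 ± 0.28). Ankrd1 was uneven, at 268, 265 and 538 CPM in foot and 162, 85.1 and 216 CPM in forelimb, and its call was lost without foot replicate 3 (log2 0.79) or without forelimb replicate 2 (0.92). Sln, which denervation raises in adult muscle, fell instead.

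The ligases and regulators of atrophy gave no common direction, with 6 of 30 higher, 12 lower and 12 not called. Trim63 read 135, 125 and 125 CPM in foot and 57.8, 56.3 and 55.9 CPM in forelimb, 2.27-fold higher in tight, separate groups (log2 1.18 ± 0.13, adjusted p = 1.4e-08). Fbxo32 (atrogin-1), its usual companion, read 5.92, 6.61 and 5.003 and 5.49, 5.84 and 4.32 CPM, overlapping and not called; the length offset gave 0.71 (adjusted p = 0.0021). Mstn, myostatin, the secreted brake on muscle growth, rose from 78.3, 88.1 and 86.2 to 162, 151 and 155 CPM (log2 0.89 ± 0.11), while its receptor Acvr2b fell (log2 -1.44 ± 0.17). Nedd4l rose and Nedd4 fell, at log2 0.81 and -1.01, and Klf15 and Asb2 had the largest decreases.

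The proteasome was higher as a group, by a small amount. Of 37 tested subunits and activators, 32 were higher and 1 lower in foot, with a median log2 of 0.39 and a range of -0.27 to 0.81. The summed level was 6548 to 6764 CPM in foot and 5106 to 5269.8 CPM in forelimb. Psmb2, a core beta subunit, read 148, 147 and 136 CPM in foot and 85.8, 82.3 and 77.9 CPM in forelimb (log2 0.81 ± 0.067), and Psme2, Psmc4 and Psmb3 rose by 0.66 to 0.70. These are short transcripts, with a median of 1540 bases, and the median of all features in the shortest quintile was 0.38. With the length offset 15 were higher and none lower, and the median was 0.11.

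Other stress and clearance lists were mixed. Of 35 tested genes of endoplasmic reticulum stress, 17 rose and 6 fell. The chaperone Hspa5 (BiP) read 1185, 1198 and 1319 CPM in foot and 809, 833 and 743 CPM in forelimb (log2 0.63 ± 0.13), and Atf5 and the amino acid enzyme Phgdh, both raised in the amino acid response, increased by 1.12 and 1.20. Edem1 and Sel1l, which clear misfolded proteins from the reticulum, fell by -1.41 and -1.30. In autophagy and the lysosome, 15 of 40 rose and 11 fell, or 13 and 17 with the length offset. The lysosomal enzymes Ctsk and Hexa rose by 0.88 and 0.82. Of 34 tested calpains, caspases and cell death genes, 13 rose and 10 fell, or 8 and 12 with the length offset. The inhibitor of caspases Xiap read 14.2, 13.4 and 14.9 CPM in foot and 43.6, 43.9 and 42.2 CPM in forelimb (log2 -1.61 ± 0.084), Bcl2 fell at a low level, and the pro-death factor Pmaip1 rose from 0.164 to 0.914 CPM. Other pro-death members went both ways: without the offset Fas and Apaf1 fell by -1.22 and -0.88, and Diablo rose by 0.61. Of all features, 38.2% were higher and 35.0% lower. Targets of p53 showed no direction, 9 higher and 10 lower of 26 (10 and 8 with the offset).

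Heat shock proteins and chaperones rose in 10 of 24 cases and fell in 5, led by Hspb2 and Cryab, 2 small heat shock proteins of muscle (log2 1.22 ± 0.084 for Hspb2); with the length offset the counts were 8 and 7. Among genes of oxidant defence, 10 of 27 rose and 6 fell, or 8 and 14 with the length offset. Hmox1, heme oxygenase, rose (log2 1.21 ± 0.17), while the mitochondrial and secreted superoxide dismutases Sod2 and Sod3 fell by -1.23 and -3.18 and the cytosolic Sod1 rose by 0.61. Of 34 immediate early genes, 10 rose, 5 fell and 19 were not called, where 38.2% of all features were higher and 35.0% lower. Junb, Dusp2 and Gadd45b rose, each under 10 CPM, and Nr4a3, Klf4, Klf6 and Rhob fell, at log2 -1.59 to -0.74. Egr1 was not called (156 against 97.2 CPM, adjusted p = 0.14, or 0.0038 with the 6 libraries fitted alone).

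**Figure D3:**
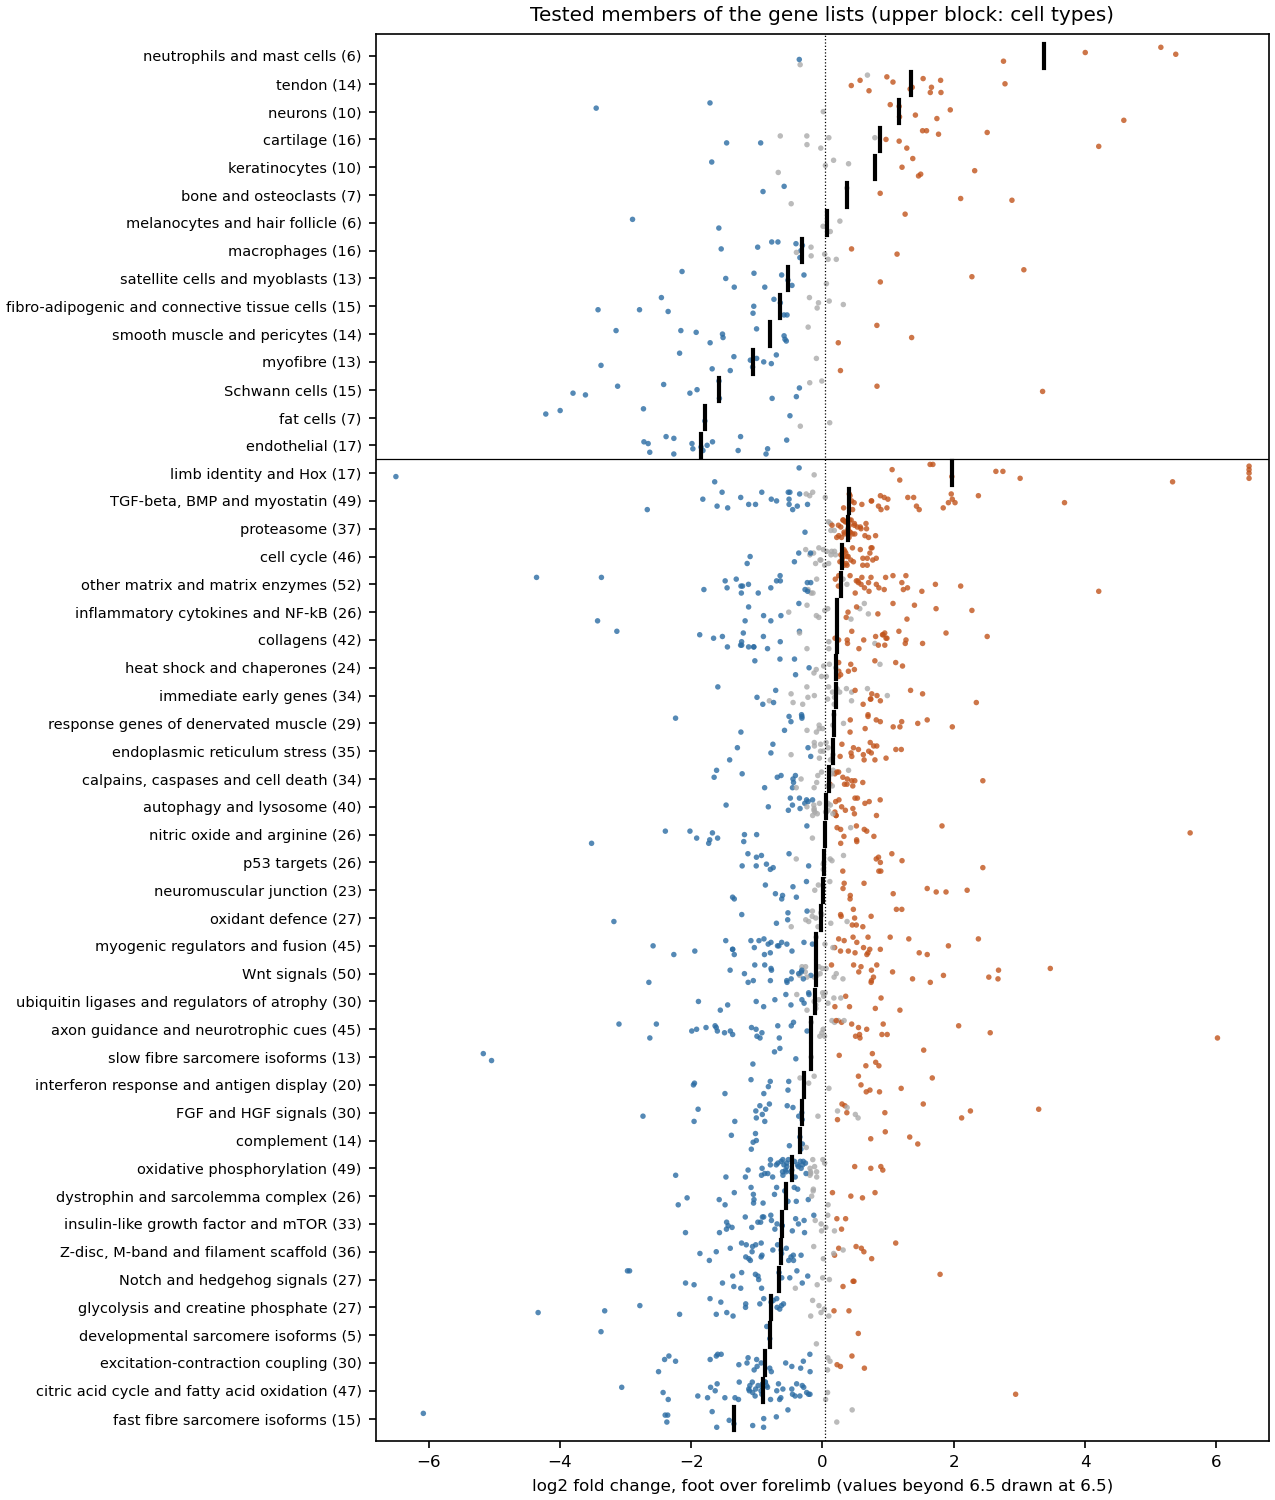
Log2 fold change of foot over forelimb (x) of every tested member of the gene lists with at least 5 members tested (y, with the number tested), coloured by call; the black bar is the list's median and the dotted line the median of all features, 0.04. Fast fibre genes have a median of -1.35, tendon markers of 1.35 and endothelial markers of -1.85.

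Regulators of muscle formation were divided, 20 of 45 higher and 22 lower. Myod1 and Myog, the factors that commit and differentiate myoblasts, rose: Myod1 read 27.96, 24.2 and 19.5 CPM in foot and 17.98, 10.7 and 10.3 CPM in forelimb, and Myog 339.7, 311 and 304 and 232, 173 and 186 CPM (log2 0.88 ± 0.21 and 0.69 ± 0.093). In each case the lowest foot library was above the highest forelimb library. Pax7, the factor of satellite cells, fell from 29.9, 26.2 and 24.9 to 12.8, 9.58 and 9.27 CPM (log2 -1.34 ± 0.12), and Calcr, a receptor of quiescent satellite cells, fell by -2.14. Over the satellite cell and myoblast markers, 9 of 13 fell and 3 rose, with Vcam1 and Chrdl2 rising beside Myod1. Id1, Id2 and Id3, which hold back the myogenic factors and are targets of BMP signalling, all rose, Id1 from 12.8, 7.98 and 8.04 to 59.2, 48.8 and 41.8 CPM (log2 2.38 ± 0.15, 1.92 ± 0.12 and 1.47 ± 0.11). The TEAD partner Vgll3 read 6.999, 6.32 and 5.59 CPM in foot and 38.1, 37.3 and 38.7 CPM in forelimb (log2 -2.58 ± 0.089), and Tead1 fell as well (-1.95; -1.29 with the length offset).

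In the FGF and HGF list, 16 of 30 fell and 9 rose. Fgf6, a ligand made mainly by muscle, read 2.04, 1.71 and 2.55 CPM in foot and 15.1, 11.5 and 14.4 CPM in forelimb, 6.66-fold lower (log2 -2.74 ± 0.23, adjusted p = 1.4e-10). Its receptor in myoblasts, Fgfr4, fell (log2 -0.88 ± 0.10), as did Met, the HGF receptor, and Hgf (log2 -1.34 ± 0.10 and -0.92 ± 0.22). Other ligands rose: Fgf7, which acts on epithelia, read 24.6, 26.4 and 31.3 CPM in foot and 8.57, 9.51 and 10.3 CPM in forelimb, and Fgf9, Fgf10 and the HGF activator Hgfac rose by 2.12 to 3.29. The decoy receptor Fgfrl1 fell (log2 -1.90 ± 0.095).

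In the insulin-like growth factor and mTOR list, 24 of 33 fell and 3 rose, or 17 and 6 with the length offset. Igf1, the growth factor that drives fibre growth, read 12.1, 11.7 and 9.37 CPM in foot and 43.5, 47.5 and 51.1 CPM in forelimb, 4.25-fold lower with no overlap (adjusted p = 1.2e-13). Irs1, the adaptor of its receptor, and Deptor, an mTOR inhibitor, fell by -1.46 and -1.46 (-0.81 and -0.83 with the offset). The clearance receptor Igf2r was lower at -0.79 and no longer called with the offset (-0.15).

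The TGF-beta, BMP and myostatin list had more increases, 26 of 49 higher and 19 lower. Tgfb1 read 59.7, 60.7 and 68.5 CPM in foot and 14.7, 16.02 and 15.9 CPM in forelimb, 4.05-fold higher (log2 2.02 ± 0.11, adjusted p = 7.7e-14). Ltbp1, which stores the latent ligand in the matrix, and its target Tgfbi rose by 1.43 and 1.39. The BMP antagonist Grem1 had 38 reads in foot and 3 in forelimb, a ratio of 14 (95% counting interval 4.44 to 70.9). The co-receptor Tgfbr3 and the mediator Smad5 fell by -1.82 and -1.61, and Thbs1, an activator of the latent ligand, by -1.53.

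Wnt genes showed no common direction, 17 higher and 19 lower of 50 (17 and 15 with the length offset), and 3 of the 4 largest increases were inhibitors of the pathway. Wif1 rose from 17.7 to 114 CPM, Dkk1 from 0.407 to 4.57 CPM and Nkd2 from 7.57 to 43.9 CPM, and the R-spondin receptor Lgr5 rose by 2.67. The ligands Wnt2 and Wnt2b fell by -2.65 and -1.41. Sfrp5, also an inhibitor, was among the 4 largest decreases, so inhibitors went both ways. Notch and hedgehog genes fell in 19 of 27 cases and rose in 4. Notch4 and its ligand Dll4, both of vessels, fell by -2.97 and -1.96, beside the 17 of 17 lower endothelial markers, whose part in this was not tested. Notch1 and Notch2 fell by -1.25 and -0.98, which the length offset brought to -0.59 and -0.31. Hes6, which favours differentiation over Notch output, rose from 12.97, 8.54 and 9.87 to 38.3, 35.2 and 35.6 CPM (log2 1.79 ± 0.13). In the cell cycle list, 26 of 46 rose by at most 0.82 and 5 fell, among them the D cyclins Ccnd1 and Ccnd2 (-1.10 and -1.15).

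Tendon genes rose in 13 of 14 cases. Tnmd, the tendon membrane protein tenomodulin, read 2841, 3275 and 3086 CPM in foot and 724, 945 and 973 CPM in forelimb (log2 1.80 ± 0.15), and Scx, the tendon transcription factor, and Comp, a matrix protein of tendon and cartilage, rose by 1.81 and 2.78. Postn, periostin, a matrix protein of tendon and fibrous tissue, read 12457, 14543 and 12929 CPM in foot and 3634, 4241 and 4240.3 CPM in forelimb (log2 1.72 ± 0.11). Collagens were divided, 21 of 42 higher and 16 lower. The fibrillar gene Col1a2 rose from 16927, 18249 and 20484 to 33135, 34281 and 30152 CPM and the cartilage collagen Col2a1 by 1.53, while Col4a1 of the basement membrane fell from 4136, 3896 and 4330.3 to 1342, 1283 and 1288 CPM (log2 -1.66 ± 0.068). Of 52 other matrix genes and matrix enzymes, 27 rose and 19 fell. Fn1, fibronectin, was not called (-0.17), but was called lower without foot replicate 2 (-0.23) and in 6 other fits without a length offset, and higher with that offset (0.45).

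Immune cell markers differed by cell type. Macrophage markers fell in 8 of 16 cases and rose in 2; without forelimb replicate 2 or replicate 3 only 5 fell, and without any 1 library but foot replicate 3 only 1 rose. They had summed levels of 333 to 348 CPM in foot and 464 to 546 CPM in forelimb. Mrc1, of resident macrophages, fell (log2 -1.54 ± 0.12) and Cd68, of lysosome-rich ones, rose (log2 1.14 ± 0.11). Of 6 tested mast cell and neutrophil genes, 4 rose and 1 fell. The list summed to 69.8 to 148 CPM in foot and 13.9 to 14.4 CPM in forelimb, through Cma1, Cpa3 and Hdc. The decrease was Kit (log2 -0.35). It was not called with the length offset (-0.02, adjusted p = 0.88) or without foot replicate 1, foot replicate 2 or forelimb replicate 3 (-0.34 to -0.32). Ltf, of neutrophils, was called only with foot replicate 3 (log2 2.59, adjusted p = 0.098, without it). Lymphocyte markers were near the floor, with only Ptprc and Lck tested of 13 measured.

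Cytokine and NF-kB genes rose in 9 of 26 cases and fell in 7, where 38.2% of all features were higher and 35.0% lower. Nfkb2 read 62.1, 77.3 and 82.9 CPM in foot and 27.7, 28.7 and 27.6 CPM in forelimb, and its partner Relb rose as well (log2 1.40 ± 0.11 and 1.29 ± 0.094). Vcam1, an adhesion molecule that NF-kB induces and myoblasts also carry, read 55.6, 61.4 and 54.8 CPM in foot and 10.4, 12.8 and 12.3 CPM in forelimb (log2 2.28 ± 0.12). Cxcl12 and Csf1 fell (log2 -1.18 and -0.90 without the length offset), and the tested members ranged from -3.43 to 2.28. In the interferon and antigen display list 7 of 20 rose and 9 fell, and in complement 4 of 14 rose and 9 fell. B2m, of class I antigen display, rose (122 against 73.97 CPM), and so did the complement regulator Clu (171 against 67.7 CPM), while C4b fell (65.6 against 133 CPM).

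Nerve tissue markers differed by cell type. Of 15 tested Schwann cell markers 11 fell and 2 rose, of which 1, Egr2, was not called without foot replicate 2 (0.72), forelimb replicate 1 (0.62) or forelimb replicate 2 (0.77). Mbp, myelin basic protein, read 0.763, 2.39 and 0.441 CPM in foot and 9.62, 32.01 and 12.04 CPM in forelimb (log2 -3.80 ± 0.48). Replicate 2 was the highest in both limbs, by more than 2-fold, and the groups did not overlap; the difference was -4.81 without foot replicate 2 and -3.08 without forelimb replicate 2. Of 10 tested neuron genes, 7 rose and 2 fell. Snap25, of nerve endings, rose from 0.121, 0.0334 and 0.105 to 1.59, 1.68 and 3.48 CPM, and Tubb3, the neuronal tubulin, fell by -3.45. Chat, the enzyme that makes acetylcholine, had no reads in any of the 6 libraries. Axon guidance and neurotrophic genes fell in 22 of 45 cases and rose in 14, but with the length offset 19 fell and 20 rose and the median went from -0.17 to 0.10. Among them were Ntn1 down by -3.10 and Bdnf up by 2.08.

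Fat cell markers fell in 5 of 7 cases, and their sum was 106 to 113 CPM in foot against 619 to 661 CPM in forelimb. Markers of fibro-adipogenic and other connective tissue cells fell in 10 of 15 cases and none was called higher in the fit of all libraries (1 was without foot replicate 1 or forelimb replicate 3; Ly6a had no reads), led by Pi16, which read 7.25, 9.51 and 10.2 CPM in foot and 84.1, 99.7 and 102 CPM in forelimb. Smooth muscle and pericyte markers fell in 10 of 14 cases, with Myh11 down by -3.15 (-3.91 without foot replicate 3), Rgs5 down by -1.92 and Tagln up by 1.36. Keratinocyte markers summed to 64.05 to 87.5 CPM in foot and 26.9 to 34.5 CPM in forelimb, with 5 of 10 higher and 1 lower. Trp63 rose by 2.32 and Dsp by 1.38 (2.04 with the length offset), and the epithelial cadherin Cdh1 fell by -1.69. With a stricter filter of 50 reads, 3 keratinocyte markers were higher and none lower. Bone markers were 3 higher and 2 lower of 7 (1 lower with the length offset, without foot replicate 2 or without forelimb replicate 3), melanocyte and hair markers 1 and 2 of 6, and the single red cell gene tested, Alas2, was not called.

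The same comparison was made in the P0 libraries, where 71.2% of these features were called (33.9% higher, 37.3% lower). Of the 9607 features called at P3, 7225 were also called at P0 in the same direction and 388 in the opposite direction. The difference between the ages was itself called for 4125 of 13128 features (31.4%), 2269 higher and 1856 lower at P3, and with the jerboa libraries fitted alone 1538 were higher and 2011 lower. P0 files were labelled as made from trimmed reads and P3 files from original reads, which both limbs of an age share. Mbp was among the largest differences toward lower values at P3: at P0 it read 1.87, 0.566 and 0.635 CPM in foot and 1.98, 1.36 and 1.38 CPM in forelimb, and the foot to forelimb difference moved by -3.21 ± 1.05 between the ages (adjusted p = 0.023). Without P0 foot replicate 1 that difference was -2.42 and not called (adjusted p = 0.23). Mybpc2 and Plin4 also fell further behind (-3.12 ± 1.004 and -2.13 ± 0.42), though for Mybpc2 the difference was not called without P0 foot replicate 1 (-2.37, adjusted p = 0.23) or replicate 3 (-3.13, adjusted p = 0.056), and Ankrd1 lost most of a large excess in foot (-2.72 ± 0.63; -1.71 without P0 foot replicate 3). In the other direction the splicing kinase Clk1 and the splicing-related Rsrp1 were higher in foot than in forelimb at P3 and were not called at P0, Clk1 with 353, 347 and 274 CPM against 74.8, 67.2 and 53.2 CPM at P3 and 227, 212 and 165 CPM against 375, 185 and 132 CPM at P0 (difference 2.51 ± 0.33, adjusted p = 5.5e-06). For Clk1 the foot levels were higher at P3 than at P0 and the forelimb levels lower.

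Smaller differences were called for genes described above. Myh8 was lower in foot at both ages and further so at P3 (difference -0.62 ± 0.19), Ass1 was higher at both and further so at P3 (0.92 ± 0.16), and Myh7 turned from lower to higher (0.93 ± 0.15). The differences for Fgf6 (-0.99 ± 0.33), Trim63 (0.51 ± 0.18) and Igf1 (0.56 ± 0.18) were called with all libraries, but in 4, 7 and 6 of the 12 fits without 1 library they were not, with adjusted p of up to 0.13, 0.099 and 0.064. At P0 Nos1 had 0 reads in all 3 foot libraries and a mean of 1.38 CPM in forelimb, so no fold between the ages is given. For the proteasome, 13 members were higher and 7 lower at P0 with a median of 0.10, and the difference between the ages was called for 15 higher and 1 lower. Macrophage markers were 1 higher and 13 lower at P0, and 7 of the 16 differed between the ages, all toward higher values at P3.

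**Figure D4:**
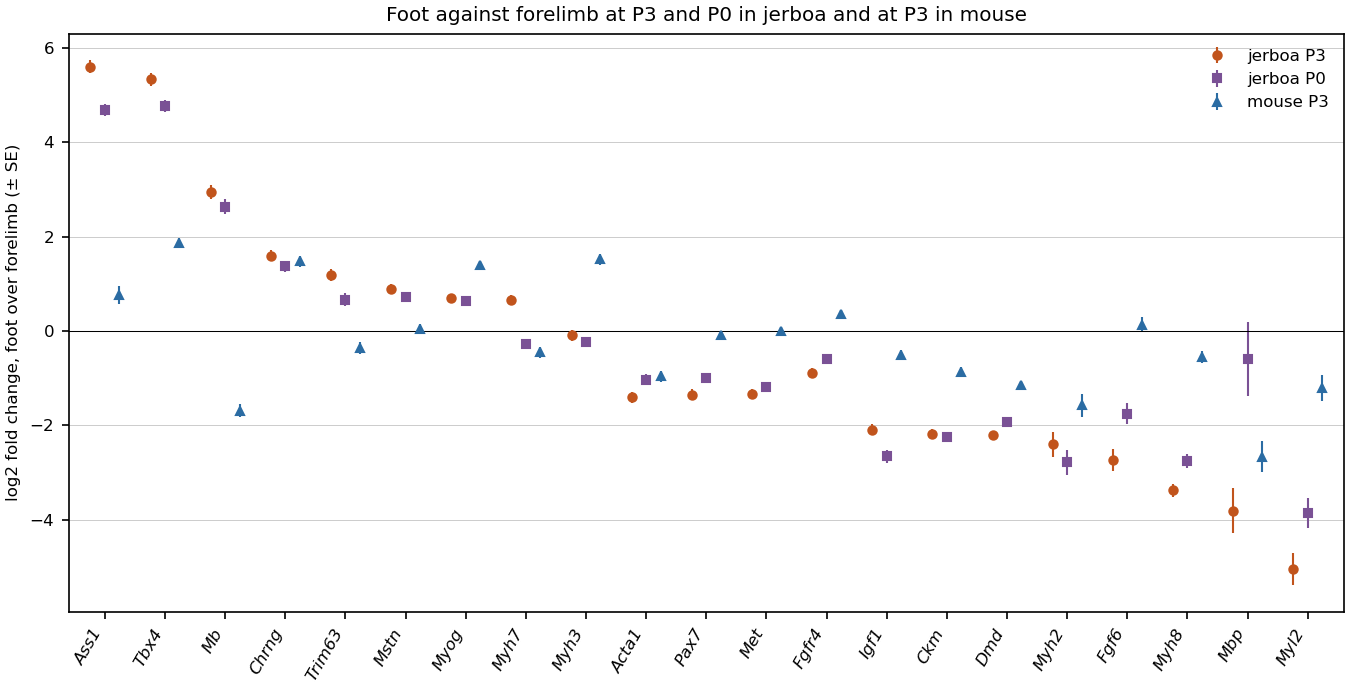
Log2 fold change of foot over forelimb (y, ± SE from the edgeR fit, 3 libraries a group) for 21 genes (x) in jerboa at P3, jerboa at P0 and mouse at P3. Mb, Trim63, Fgf6 and Myh8 differ between jerboa and mouse, and Myh7 between the jerboa ages.

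The same comparison was made in mouse, an animal that keeps its foot muscles, and 56.7% of features were called there (29.5% higher, 27.2% lower). Of 12531 features with enough reads in both species, 6883 (54.9%) had a foot to forelimb difference that differed between the species, 3297 higher and 3586 lower in jerboa. Of the 9266 of them called in jerboa, 4546 were called in mouse in the same direction and 1029 in the opposite direction. Energy genes fell in both: in the citric acid cycle and fatty acid oxidation list 44 of 47 were lower in mouse as well. Mb went against its group in jerboa and with it in mouse, at 131, 114 and 134 CPM in mouse foot and 392, 405 and 418 CPM in mouse forelimb (difference between species 4.63 ± 0.21, adjusted p = 2.7e-14).

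Myh8 was -0.54 in mouse against -3.37 in jerboa (difference -2.83 ± 0.19), and Myh3 was higher in mouse foot (1.52 ± 0.11). Actc1 and Myl4 were likewise higher in mouse foot and lower in jerboa foot, so all 5 developmental sarcomere genes were lower in jerboa relative to mouse. Trim63 was lower in mouse foot (-0.37 ± 0.13) and higher in jerboa foot (difference 1.55 ± 0.18, adjusted p = 1.2e-07). Fgf6, Met and Pax7 were not called in mouse (0.13, -0.01 and -0.09) and fell in jerboa, with differences of -2.87 ± 0.28, -1.33 ± 0.14 and -1.25 ± 0.16. Chrng rose in both species (1.48 in mouse), and its difference of 0.12 ± 0.17 was not called. Tgfb1 was not called in mouse and rose in jerboa (difference 2.21 ± 0.16). Proteasome genes were 3 higher and 2 lower in mouse, and 26 of 37 were higher in jerboa relative to mouse and none lower, which with the length offset became 12 and none (median 0.36 without it and 0.18 with it).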

How the data were processed

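The deposited files hold whole-number read counts per feature, made by the authors with STAR, per the submitters' processing notes, which give no version. For the genome build, annotation, library kit and strandedness, the sources used here give nothing. Column 4 (reads of 1 strand) was used and column 2 (either strand) tried as an alternative. Symbols, coordinates and transcript lengths come from the mouse annotation GENCODE M21 on GRCm38, for jerboa too.

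Counts of all 24 libraries were fitted with edgeR 4.0.16 (R 4.3.3) by its quasi-likelihood test, with TMM scaling, 8 group coefficients and 16 residual degrees of freedom. The 13128 features with at least 10 reads in 3 of the 6 libraries were tested, 12531 of them in the comparison with mouse, with Benjamini-Hochberg adjustment over all of them at 0.05. The standard error is the absolute fold change over the square root of F. Genes named are the 12 largest changes each way of at least 10 CPM, the 4 largest called changes each way and the 2 most abundant of each of 52 gene lists, a set of muscle genes, and the 6 largest differences each way between ages and species. A few genes covered by this rule are not reported here. The members and lists were chosen with earlier results of these data known. Alternatives used DESeq2 1.42.0, limma 3.58.1, other scalings and filters, fewer libraries, a replicate block and a minimum of 2-fold. The offsets for transcript length and GC content were chosen after the data were seen. Counting intervals (95%) and the floor of 3 reads cover counting error only. The fitting code was tested on simulated data.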

Additional observations from a re-analysis of the deposited data

Results flagged for a closer look

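The foot to forelimb difference differed between the jerboa ages for 4125 features and between jerboa and mouse at P3 for 6883 features, by edgeR's test of the difference itself. Values below are differences of log2 fold changes, P3 minus P0 or jerboa minus mouse, and each gene had 3 libraries in each of the 4 groups. No test for outlying libraries was made within the groups of 3.

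Between the ages, the 6 largest differences each way were taken among genes with a mean of at least 10 CPM in 1 of the 4 groups, and those reported here with more than 3 reads in every group were, toward lower values at P3, Mbp -3.21, Mybpc2 -3.12, Ankrd1 -2.72, Plin4 -2.13 and Creb5 -2.07, and toward higher values Dpep1 1.94, Rsrp1 2.10, Slc2a5 2.22 and Clk1 2.51. Slc2a5 carries fructose, Dpep1 is a membrane dipeptidase and Creb5 a transcription factor. The set of muscle genes in the naming rule, which includes limb genes and signals, was also looked up. Other genes described above are not listed here, whether called or not. Of the set, the difference was called for Tbx4 0.56, Myh8 -0.62, Myh1 0.72, Myh4 0.71, Myh7 0.93 and Trim63 0.51, and for Fgf6 -0.99, Ass1 0.92, Musk -0.57, Igf1 0.56 and Dmd -0.26. It was also called for Hoxc10, Hoxc11, Tbx5 and Nos1, which had 1, 3, 2 and 0 reads in 1 of the groups, and no size is given for them. In fits without 1 of the 12 libraries the call was lost in at least 1 fit for Tbx4 (6 fits), Myh1 (7), Myh4 (9), Trim63 (7), Fgf6 (4), Igf1 (6), Dmd (5), Mybpc2 (2) and Mbp (1), with adjusted p from 0.051 to 0.23.

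By the same limits, the differences between the species were, toward lower values in jerboa, Lars2 -5.28, Tecrl -5.06, Dpysl5 -4.55, Ankrd2 -4.51 and Dupd1 -4.50, and toward higher values Ass1 4.84, Pvalb 5.30, Corin 5.33, Myh15 5.58, Gcg 6.68 and Tuba8 6.78. Tuba8 is a tubulin of muscle and testis, Pvalb the calcium buffer of fast fibres and Gcg encodes glucagon. Tuba8 read 0.383, 0.4002 and 0.587 CPM in mouse foot and 23.9, 30.4 and 29.2 CPM in mouse forelimb, against 2.96, 2.42 and 2.65 CPM in jerboa foot and 1.42, 1.903 and 1.09 CPM in jerboa forelimb. Lars2, a mitochondrial leucyl tRNA synthetase, read 1478, 2297 and 1404 CPM in mouse foot and 85.6, 91.00 and 108 CPM in mouse forelimb. In jerboa, Lars2 was lower in foot by log2 -1.10, not called in the fit of all libraries. With the 6 jerboa libraries of P3 fitted alone it was called (-1.13, adjusted p = 6.2e-08). The difference between the species was also called for Atp13a5, for which no size is given, with 2 reads in jerboa foot and 154 in jerboa forelimb, a ratio of 69.6 (95% counting interval 18.96 to 580.2). The same set of muscle genes was looked up, and other genes described above, such as Mb and Tgfb1, are not listed here. Of the set, the difference was called for Tbx4 3.47, Myh3 -1.61, Myh8 -2.83, Myh1 1.90, Myh2 -0.82, Myh4 0.67 and Myh7 1.11, for Ckm -1.31, Acta1 -0.45, Myog -0.70, Pax7 -1.25, Trim63 1.55, Fgf6 -2.87, Met -1.33 and Fgfr4 -1.24, and for Nos1 -1.77, Chrne 0.49, Musk 0.39, Mstn 0.84, Igf1 -1.58, Des -0.31 and Dmd -1.07. It was also called for Pitx1, with 2 reads in jerboa forelimb and no size given. In fits without 1 of the 12 libraries the call was lost for Acta1 (5 fits), Chrne (9), Des (10), Myh2 (9) and Myh4 (4), with adjusted p from 0.051 to 0.15. Without jerboa foot replicate 2 the difference was 4.61 for Pvalb and -6.63 for Ankrd2, and without mouse foot replicate 3 it was 7.46 for Gcg.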

How the results depend on the processing

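Every alternative but the minimum of 2-fold kept the counts of called features in the 3 comparisons within 1.5 times. Testing against a minimum of 2-fold left 1715 features for foot against forelimb at P3 (625 higher, 1090 lower), 11 for the difference between ages (9 and 2) and 894 for the difference between species (358 and 536). Leaving out 1 library at a time gave 9062 to 9219 (4680 to 4833 higher, 4381 to 4412 lower), 3485 to 3943 (1906 to 2170, 1579 to 1780) and 6387 to 6581 (3026 to 3173, 3360 to 3458). With the 12 jerboa libraries alone, the share of higher calls in the difference between ages went from 55.0% to 43.3%. The labels share replicate numbers between limbs but do not say that a number marks an animal or a day; the deviations of same-numbered libraries correlated at 0.05, -0.10 and 0.008, and with the replicate block 9539 features were called (4971 higher, 4568 lower), 3982 for the ages and 6827 for the species. Of the 420 genes covered by the naming rule, 384 kept their direction and their side of the threshold under every alternative they were tested in but the minimum of 2-fold and the offsets (29 were under the stricter filter); 36 changed side and none reversed. With the length offset 380 kept both, and 9 changed sign with a call in at least 1 of the fits with and without it. Some of those 9 were called in only 1 of these fits. Apart from those 9, 26 lost their call and 5 gained one. Among the genes described, Fn1 went from -0.17 to 0.45 (0.46 with the GC content offset added) and Myh3 from -0.09 to 0.34 (0.35); the cause was not tested. Fn1 was called lower, at -0.23 to -0.16, in 7 fits without a length offset. Depth limits the genes with few reads, such as Nos1 and the Hoxc genes, whose fold changes are uncertain.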
